A study of Mus musculus with 86 samples.

Results

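The 43 loci described here are mouse intergenic piRNA loci whose long transcripts were lower in Btbd18 knockout testis at postnatal day 18 (P18). PIWI-interacting RNAs (piRNAs) are small RNAs of animal germ cells that guide PIWI proteins to RNA targets. In mice the pachytene class appears as spermatocytes enter the pachytene stage of meiosis. Long single-stranded precursors are transcribed from dedicated loci, many of them between genes, and are then cut and trimmed into piRNAs loaded on PIWI proteins such as PIWIL1. The transcription factor A-MYB, encoded by Mybl1, is known to drive many of these loci, and BTBD18 is a nuclear protein with a BTB domain known to promote their transcription.

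The loci were picked from the 24276 features of the testis RNA table. Of its 100 intergenic piRNA loci, named by chromosome and band, 52 had a log2 ratio of knockout to heterozygous mean normalised counts (CPM, read counts scaled so that every library has the same total, with 0.1 added to each mean) of -1 or lower at P18. A further 9 loci were left out by name, which gave the 43. The P18 testis RNA difference therefore defines them and is given only as a description: the median ratio was -3.56 on the log2 scale and the strongest was -7.67 at 12-qE-23911. Just inside the threshold were 11-qB1.3-590 at -1.54, 1-qE3-706 at -1.31 and 4-qD2.2-2182 at -1.07. Just outside were 17-qA3.3-352 at -0.89, 9-qF4-150 at -0.76 and 6-qF3-3040 at -0.72.

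The 43 loci lie on 13 chromosomes in 24 bands, and 30 of them share one of 11 bands with another of the 43. Band 10-qC1 holds 5, bands 7-qD1 and 14-qA3 hold 4 each, and 5-qF holds 3. In 7 of the 24 bands there are also other intergenic loci, 8 in all. Loci in 1 band may share sequence or transcription, so they are not independent measurements. Locus lengths are not given in the sources used here, so ranks and correlations of levels across loci carry no correction for length.

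As a description of the values that chose them, 12-qE-23911 had 367, 373 and 289 CPM in P18 heterozygotes and 3.51, 0.909 and 0.343 CPM in knockouts. At the other end, 4-qD2.2-2182 had 31.5, 26.3 and 30 CPM against 13.9, 17.4 and 10.3 CPM. At all 43 loci the 3 knockout libraries lay below the 3 heterozygotes, as the choice made likely, and the median locus kept 7.96% of its heterozygous level.

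All mice were C57BL/6 X 129/SvJ hybrids, either heterozygous or homozygous for the Btbd18 mutation, so the controls carry 1 mutant allele. The homozygotes are called knockouts here. Testis poly(A) RNA was sequenced at P10 (3 libraries per genotype), P14 (2), P18 (3) and P28 (2), and poly(A) RNA of spermatocytes and of round spermatids came from 4-month-old animals (3 per genotype and cell type). Testis small RNA was sequenced at P10 (2 per genotype), P14 (2) and P18 (3), and a piRNA-enriched small RNA preparation at P10, P14 and P18 (2 each). Whether libraries of 1 group are from different animals is not in the labels. The p-values thus rest on the spread among these libraries, which may be technical.

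The deepest table was small RNA, with 4033034 to 20310440 counts per library. Testis RNA libraries held 5822808 to 12260241 counts and enriched small RNA libraries 2504450 to 16461210. Spermatocytes (321800 to 514384) and round spermatids (193711 to 543401) were far shallower. Btbd18 itself checked the testis labels: it was at 14.4 to 16.4 CPM in P10 heterozygotes against 2.02 to 2.8 in knockouts, and at 5.57 and 6.26 against 1.46 and 1.82 at P28. In both purified cell types it had 0 to 3 counts per library, which checks nothing. Some libraries stood apart in their share of counts from the 43 loci. At P14, heterozygous replicate 1 was below replicate 2 in small RNA (5.49% against 33.5%) and in enriched small RNA (19.2% against 39.7%). In enriched small RNA, P10 heterozygous replicate 2 (1.04%) was above replicate 1 (0.0426%), and P18 knockout replicate 1 (38.5%) was near the heterozygotes (42.6% and 43.2%) and far from knockout replicate 2 (8.16%). In small RNA, P18 knockout replicate 1 (3.36%) was above the other 2 knockouts (1.1% and 0.744%).

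**Figure D1:**
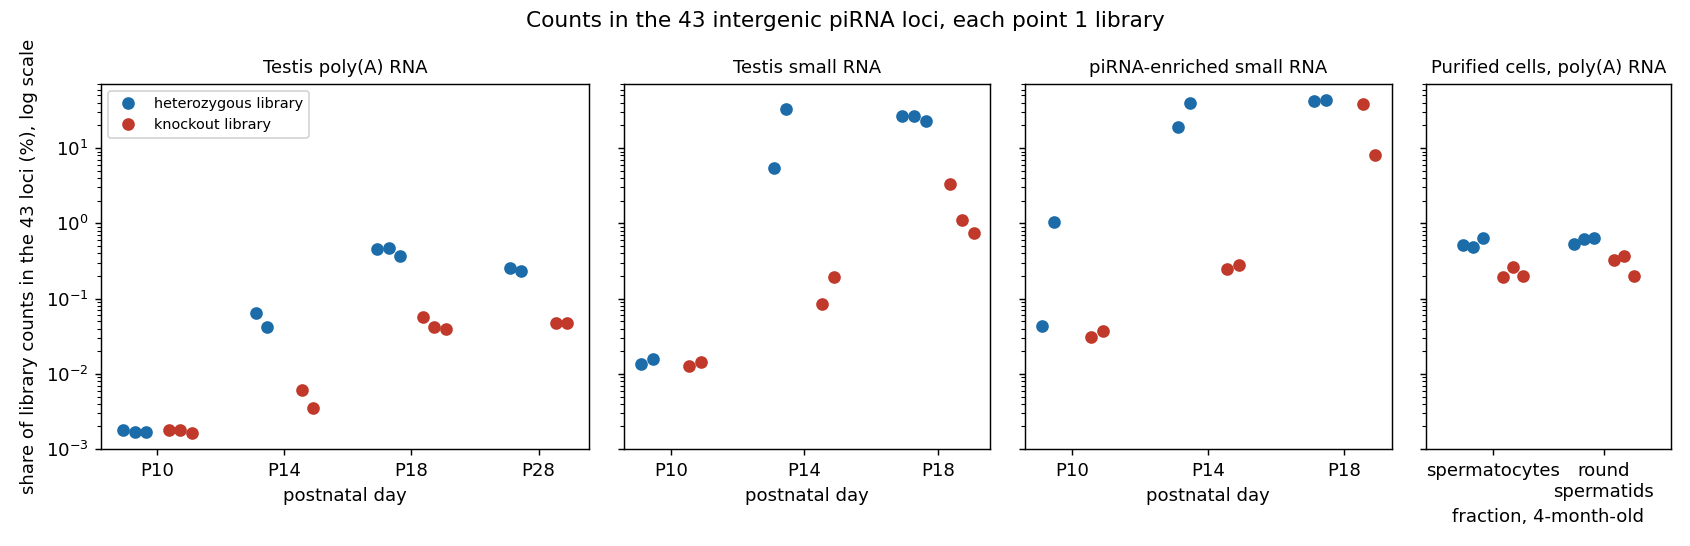
Share of each library's counts that fell in the 43 loci (percent, log scale), by age or cell type, with heterozygous libraries in blue and knockout libraries in red and each point 1 library. Testis RNA shares were alike at P10 (0.00166% to 0.00179% in both genotypes) and separated from P14 on, and in enriched small RNA at P18 1 knockout library, at 38.5%, sat beside the heterozygotes.

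In heterozygous testis the loci rose sharply between P10 and P14. Their summed share of testis RNA was 0.00167% to 0.00178% at P10, 0.0424% and 0.0647% at P14, 0.365% to 0.468% at P18, and 0.23% and 0.254% at P28. From P10 to P14, 42 of the 43 rose in edgeR's quasi-likelihood test with Benjamini-Hochberg adjustment (adjusted p under 0.05 is called throughout), with a median log2 difference of 6.57, against 28.6% of all tested features that rose. From P14 to P28, again 42 rose, with a median of 2.88, against 38.1% of all tested features. Among the other 47 intergenic loci tested, 40 rose from P10 to P14 (median 5.17) and 42 from P14 to P28 (median 1.77). Loci could pass the filter on low counts through the ages at which they were high, and only 3 of the 43 passed in a fit to the P10 libraries. The choice also needed RNA in P18 heterozygotes, which made a rise from P10 likely. The counts of loci that rose are therefore a description.

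A few loci made up much of this RNA. In the heterozygotes 12-qE-23911 was the largest contributor at P14 (9.67% and 9.04% of the counts in the 43 loci) and 11-qB1.3-590 was the largest at P28 (7.92% and 8.88%). At P10 the order was different: 6-qD1-2831 and 10-qB4-6488 led in all 6 libraries, at 2.31 to 4.6 CPM, while 12-qE-23911 had no count in any of them. These levels are in CPM, with no correction for locus length.

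At P10 the genotypes could not be told apart at these loci. No locus was called lower by edgeR with Benjamini-Hochberg adjustment, where 0.00612% of all tested features were (1 feature), and none had an unadjusted p under 0.05 or was called by DESeq2. The summed share in knockouts, 0.00166% to 0.00179%, lay on that of the heterozygotes. The 6-qD1-2831 precursor had 3.8, 3.31 and 4.27 CPM in heterozygotes and 3.68, 4.6 and 3.61 CPM in knockouts, with overlapping groups. At 17 loci the P10 knockouts had no count, so a difference was not detectable there at this depth. In a fit to only the P10 libraries, just 3 loci passed the filter on low counts. In the fit to all ages, loci could pass that filter through their counts at later ages. For most loci the lack of a call at P10 therefore does not show that the genotypes were alike.

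At P14 the knockouts had lost most of the precursor RNA. Of the 43 loci, 36 fell by edgeR with Benjamini-Hochberg adjustment and none rose, against 0.906% of all tested features that fell. Their median log2 difference was -3.35, against -0.01 over all features. In 41 loci both knockout libraries lay below both heterozygotes. The share of all features that separated in this way was not counted. By the fitted difference, the median locus kept 9.8% of its heterozygous level: 14 loci kept under 5%, 19 kept 5% to 25% and 10 kept more. Among the other intergenic loci 11 of 47 fell (median -0.73), and among loci that overlap genes 2 of 108 fell (median 0.04).

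The 12-qE-23911 locus had 62.6 and 38.4 CPM in P14 heterozygotes and 0.81 and 0.408 CPM in knockouts, a log2 difference of -6.41 ± 0.46 (SE; edgeR adjusted p = 4.37e-07). Its groups were far apart. For 15-qD1-17920 the values were 25.3 and 14.3 CPM against 0.506 and 0.489 CPM, with a log2 difference of -5.31 ± 0.37 (edgeR adjusted p = 3.01e-08). The knockouts of 14-qC1-1261 had no counts where the heterozygotes had 26 and 10, at least 12.8-fold lower at a floor of 3 counts over the group. Opposite to these stood 10-qC1-1527, with 1.12 and 0.395 CPM against 0.81 and 0.734 CPM: its groups overlapped, and the log2 difference was -0.02 ± 0.45. The number of calls rested on single libraries: 23 loci were called without knockout replicate 2 and 25 without heterozygous replicate 1.

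Pachytene spermatocyte markers were also lower in knockouts at P14. Of 10 pachytene spermatocyte markers, 6 fell (median log2 difference -1.09), and their summed level was 1370 and 1720 CPM in heterozygotes against 775 and 1050 CPM in knockouts. None of the 8 early meiotic, 9 spermatogonial or 10 Sertoli markers was called in either direction. Their sums still did not overlap. Early meiotic markers were at 1830 to 1940 CPM in heterozygotes against 1440 to 1700 CPM in knockouts. Spermatogonial markers were at 1010 to 1070 against 1090 to 1120 CPM, and Sertoli markers at 5810 to 6200 against 6410 to 6650 CPM. Round spermatid (60.6 to 76.6 against 41.5 to 58.3 CPM) and leukocyte sums (108 to 119 against 100 to 101 CPM) were also apart. Elongating spermatid, Leydig and peritubular sums overlapped. Of 5 adipocyte markers tested, 3 were called higher in knockouts, with summed levels of 9.16 and 11.1 CPM in heterozygotes, 16.2 CPM in knockout replicate 1 and 81.8 CPM in knockout replicate 2, the library without which 23 loci were called. In bulk testis, fewer cells of a type and less RNA per cell cannot be told apart, and the part of these marker changes in the locus result was not tested. Of the 29 piRNA pathway genes tested, 3 fell at P14 and none rose: Btbd18, Tdrd6 (log2 -1.86), a Tudor protein of germ granules, and Piwil1 (log2 -1.09). Piwil1, Tdrd6 and Mybl1 are also in the pachytene list. Mybl1, which encodes A-MYB, had a log2 difference of -0.35 at P14 and 0.20 at P28 and was not called.

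At P28 all 43 loci fell by edgeR with Benjamini-Hochberg adjustment, against 25.1% of all tested features. No knockout library overlapped a heterozygote at any of the 43, and such separation was not counted over all features. The median log2 difference was -3.49, against 0.12 over all features, and the loci kept a median of 8.91% of the heterozygous level. Leaving out any single P28 library gave a median of -3.58 to -3.42. This is a weak check, because the P28 replicates differed little beyond counting noise. The mean chi-square per feature between replicates, about 1 for counting noise alone, was 1.73 in heterozygotes and 1.46 in knockouts. In the other testis RNA pairs it was 2.77 to 9.6. The spread between animals may be larger than that between these libraries. Of the other intergenic loci, 3 of 47 fell and 10 rose (median 0.15), and of the loci that overlap genes 15 fell and 16 rose.

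The 12-qE-23911 locus was the most reduced at this age, at 178 and 151 CPM in P28 heterozygotes against 1.63 and 1.41 CPM in knockouts, a log2 difference of -7.04 ± 0.37 (edgeR adjusted p = 8.98e-11). The 11-qB1.3-590 locus, with the highest heterozygous level at this age, had 201 and 204 CPM against 85.5 and 83.8 CPM, a log2 difference of -1.56 ± 0.22 (edgeR adjusted p = 1.87e-05). It was also the largest contributor left in knockouts, at 18% and 17.6% of the counts in the 43 loci. The smallest fall was at 4-qD2.2-2182, with 23.1 and 24.6 CPM against 17.5 and 16.9 CPM (log2 -0.77 ± 0.19, edgeR adjusted p = 0.00266).

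Cell type markers of the P28 testes differed strongly between genotypes. All 10 round spermatid markers fell (summed 2170 CPM in both heterozygotes against 680 and 690 CPM), and all 8 elongating spermatid markers fell (7020 and 7520 CPM against 4.23 and 4.46 CPM). Pachytene markers differed less, at 9970 and 10300 CPM against 8020 and 8070 CPM, with 6 of 10 called lower, and Sertoli markers were higher, at 2180 and 2220 CPM against 4050 and 4090 CPM, with 8 of 10 called. The part of these shifts in the P28 locus result was not tested. Of 29 piRNA pathway genes, 7 fell and 2 rose at P28, where 25.1% of all tested features fell and 4203 of 16334 rose, among them Btbd18 (log2 -2.14), Tdrd6 (log2 -0.61) and the RNA helicase gene Mov10l1 (log2 0.41).

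**Figure D2:**
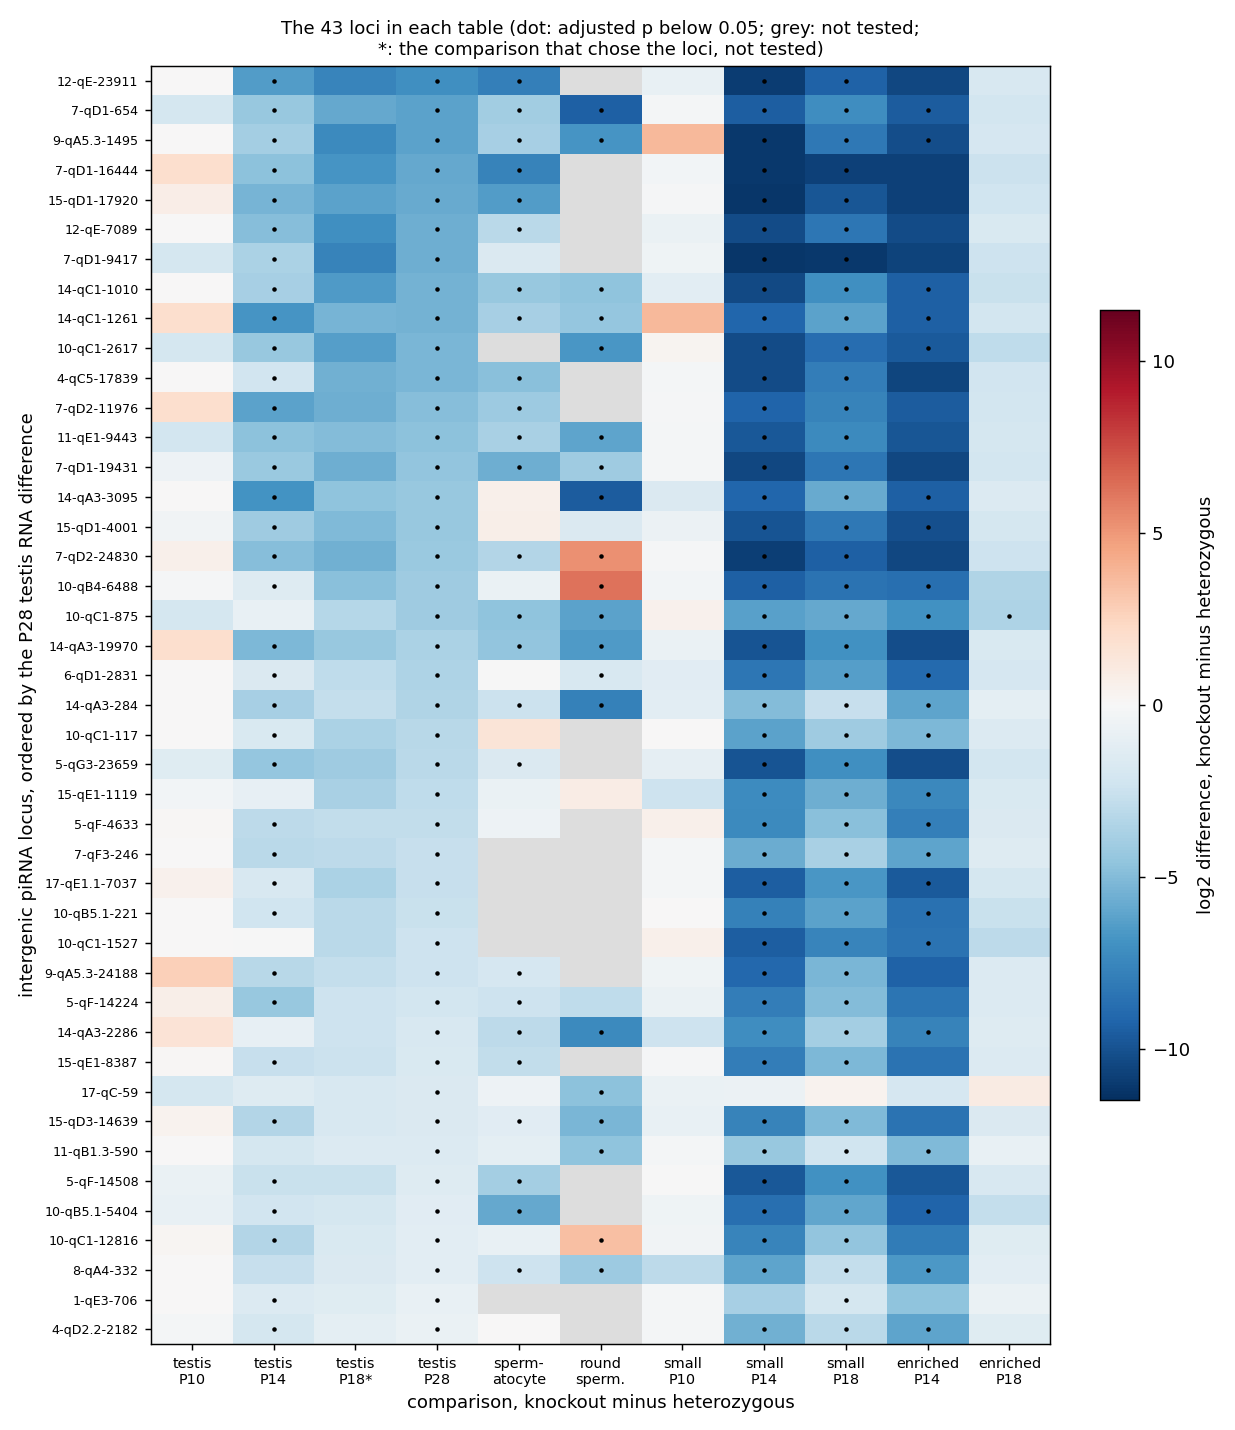
Log2 difference between knockouts and heterozygotes (colour; blue lower in knockouts) for each of the 43 loci (rows, ordered by the P28 testis RNA difference) in 11 comparisons (columns), with a dot where the adjusted p was under 0.05 and grey where a locus was not tested. The P10 columns hold no dot, the P28 column holds one in all 43 rows, and 3 loci are red with a dot in round spermatids. Of all tested features in that comparison, 1317 of 6703 were called higher.

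The genotype difference was compared between P14 and P28 at each locus. The difference between ages was called at 12 of the 43 loci by edgeR's interaction test with Benjamini-Hochberg adjustment, in 7 with a larger fall at P28 and in 5 with a smaller one, against 27.4% of all tested features called in either direction. With libraries scaled by total counts the split was 7 and 11. The share called is near that of all features, so such changes are not particular to the 43 loci. Over the 43 loci, 23 had the larger fall at P28 and 20 the smaller. The Pearson correlation of both differences across loci was 0.61, a description over 43 loci that share their libraries within each age.

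Among loci with a called larger fall at P28 was 10-qC1-875. It had 0.561 and 0.395 CPM in P14 heterozygotes against 0.405 and 0.163 CPM in knockouts, and 14.1 and 11.2 CPM at P28 against 0.944 and 0.829 CPM. Its fall grew by 3.3 ± 1.05 on the log2 scale (edgeR adjusted p = 0.0262). At P14 it had 6 and 4 counts in heterozygotes and 4 and 2 in knockouts, too few to show whether it had fallen by then. In 10-qB4-6488 the fall grew by 2.68 ± 0.36 (edgeR adjusted p = 1.09e-05), from 15.2 and 13.4 CPM against 5.87 and 4.89 CPM at P14 to 65.1 and 53.8 CPM against 4.29 and 4.06 CPM at P28. The P14 heterozygotes of this locus were already well above its knockouts.

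The 5-qF-14224 and 10-qC1-12816 loci went the other way. In 5-qF-14224 the P14 levels were 61.3 and 33 CPM against 3.54 and 1.31 CPM, and the P28 levels 156 and 139 CPM against 41.1 and 41.5 CPM. The knockout level rose with age, and the log2 difference shrank from -4.37 to -2.13 (change 2.23 ± 0.51, edgeR adjusted p = 0.00325). For 10-qC1-12816 the difference shrank from -3.37 to -1.25 (change 2.12 ± 0.47, edgeR adjusted p = 0.00237).

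Between P10 and P14 the genotype difference was called to grow at 1 locus, 6-qD1-2831, against 0.0429% of all tested features called in either direction. Its P14 values were 12.2 and 10.3 CPM against 3.34 and 3.83 CPM, and its log2 difference went from 0.06 at P10 to -1.66 (change -1.72 ± 0.27, edgeR adjusted p = 0.0156). Its level in P14 knockouts was that of both genotypes at P10. DESeq2 called 12 loci here. The edgeR call was lost without any 1 of P10 heterozygous replicate 1 or 2, P10 knockout replicate 1, 2 or 3, P14 heterozygous replicate 1 or P14 knockout replicate 2, each of which left 0 loci called.

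**Figure D3:**
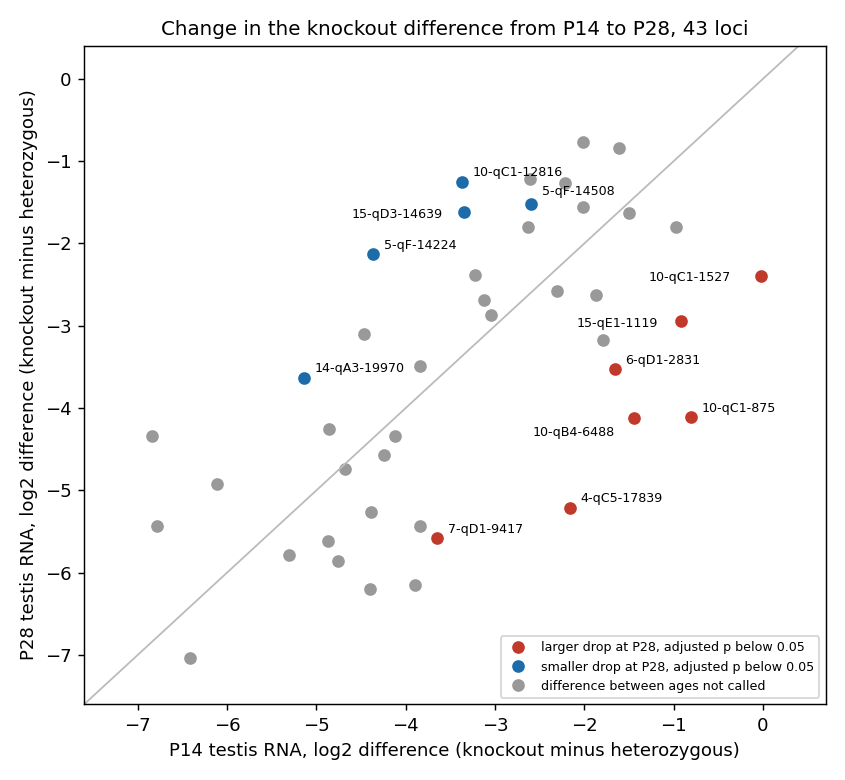
Log2 difference between knockouts and heterozygotes in testis RNA at P14 (horizontal) and P28 (vertical) for the 43 loci, each point 1 locus, with the line of equal differences. Red points (7) had a called larger fall at P28, blue points (5) a called smaller one, and grey points had no call for the difference between ages.

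Purified spermatocytes showed the loss with fewer reads. Of the 43 loci, 37 had enough counts to test, and 25 fell by edgeR with Benjamini-Hochberg adjustment while none rose, against 2.84% of all tested features that fell. Over the 37 the median log2 difference was -2.85, against -0.11 over all features. All 3 knockouts lay below all heterozygotes in 30 loci and above them in 2, which was not counted over all features. The loci tested passed a filter on low counts that a locus can pass through the heterozygotes alone. The count rested on single libraries: 10 loci were called without knockout replicate 2 and 15 without knockout replicate 1. None of the 10 pachytene markers tested was called, and their summed level was 2520 to 5990 CPM in heterozygotes and 2290 to 3700 CPM in knockouts. Some other summed markers did not overlap between genotypes. Early meiotic markers were at 498 to 1140 CPM in heterozygotes against 356 to 497 CPM in knockouts (0 of 5 tested called). Spermatogonial markers were at 109 to 377 CPM against 34.7 to 75.3 CPM (0 of 9 passed the filter). Round spermatid markers were at 326 to 478 CPM against 182 to 233 CPM (1 of 4 tested called lower). Sertoli markers were at 90.4 to 146 CPM against 149 to 335 CPM (1 of 10 tested, not called). Summed elongating spermatid, Leydig, peritubular, leukocyte and adipocyte markers overlapped. The part of these marker differences in the locus result was not tested. None of 22 piRNA pathway genes tested was called.

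The locus 12-qE-23911 had 156, 193 and 458 CPM in heterozygous spermatocytes and 0, 0 and 2.66 CPM in knockouts (log2 -7.86 ± 0.71, edgeR adjusted p = 4.36e-06). For 7-qD1-16444 the heterozygotes had 22, 16 and 44 counts and the knockouts none, at least 26.1-fold lower at the floor of 3 counts over the group. These groups were fully separate. Other loci did not separate. The 6-qD1-2831 precursor, among the most abundant of the 43 in spermatocytes, had 574, 609 and 656 CPM in heterozygotes and 376, 722 and 627 CPM in knockouts, with overlapping groups (log2 -0.06 ± 0.29). At 14-qA3-3095 the knockouts had 249, 426 and 244 CPM against 189, 205 and 240 CPM, just above the heterozygotes, with a log2 difference of 0.58 ± 0.31 that was not called. In whole testis at P28 that locus had fallen, from 110 and 101 CPM to 5.75 and 6.97 CPM.

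In the round spermatid fraction 23 of the 43 loci passed the filter on low counts, which a locus can pass through 1 genotype alone. The 5 with no count in any knockout passed through the heterozygotes. So did loci such as 14-qA3-2286, with 119, 88 and 75 counts in heterozygotes against 1, 0 and 0 in knockouts. The 7-qD2-24830 locus, with 2, 1 and 1 against 76, 11 and 44, passed through the knockouts. The calls and the median thus rest in part on loci kept by the genotype where they were high. By edgeR with Benjamini-Hochberg adjustment 17 fell and 3 rose. Of all 6703 tested features, 18.4% fell and 1317 rose. The median log2 difference was -4.66, or -4.28 with the 5 loci at 0 counts in all knockouts set to their bound, against -0.31 over all features. Leaving out any 1 of the 3 heterozygous replicates left 0 loci called, and of the other intergenic loci 11 of 19 were lower and 4 higher. The fractions also differed in content: round spermatid markers summed to 1820 to 2510 CPM in heterozygotes against 200 to 478 CPM in knockouts, spermatogonial markers to 633 to 1090 CPM against 1080 to 1610 CPM, and leukocyte markers to 1.84 to 8.36 CPM against 12 to 1520 CPM. The part of these differences in the locus result was not tested. These values go against the label of the knockout fraction, which is called the fraction labelled round spermatids from here on.

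In that fraction 11-qE1-9443 was the most abundant of the 43 in heterozygotes, at 1305, 1687 and 1521 CPM against 7.21, 0 and 62.9 CPM in knockouts (log2 -6.07 ± 1.19, edgeR adjusted p = 0.00854). The 14-qA3-3095 locus, not lower in spermatocytes, had 98, 102 and 119 counts in heterozygotes and none in knockouts, at least 69.4-fold lower. For 7-qD1-654, with 91, 121 and 72 counts against none, the level was at least 61.8-fold lower. The share of loci that rose was not above that of all tested features (1317 of 6703). The 3 loci that rose had between 1 and 45 counts in each heterozygous library. The 10-qB4-6488 locus had 1, 8 and 6 counts in heterozygotes and 402, 337 and 136 in knockouts, 10-qC1-12816 had 37, 45 and 40 against 501, 239 and 275, and 7-qD2-24830 had 2, 1 and 1 against 76, 11 and 44. All 3 were lower in knockout whole testis at P14 and P28.

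Small RNA of the loci was scarce at P10 and abundant from P14 on. In heterozygotes the 43 loci gave 0.0135% and 0.0159% of small RNA counts at P10, 5.49% and 33.5% at P14, and 22.9% to 26.8% at P18. At P10 no locus was called lower by edgeR with Benjamini-Hochberg adjustment, against 0% of all tested features, 1 locus had an unadjusted p under 0.05, and DESeq2 called none. The change from P14 to P18 in heterozygotes was called at 0 loci by edgeR (median log2 difference 1.25), against 1.21% of all tested features that rose. None had an unadjusted p under 0.05, and DESeq2 called 0. Without P14 heterozygous replicate 2, all 43 were called higher at P18.

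At P14 the small RNA of the loci was nearly gone in knockouts. Small RNA differences were scaled by the trimmed mean of M-values (TMM), which centres the bulk of the features. The scaling factors differed between genotypes, at 0.294 to 0.327 in P18 heterozygotes against 1.14 to 1.99 in knockouts, so these differences are larger than the ratios of CPM, which are shares of total counts. By edgeR with Benjamini-Hochberg adjustment 41 of the 43 fell and none rose, against 0.923% of all tested features that fell. The median log2 difference was -9.13, against -0.05 over all features, and the median locus kept 0.178% of its heterozygous level. The summed share was 0.0837% and 0.196% in the knockouts. Scaled by total counts, the median of all features moved from -0.05 to 0.98, 42 loci were called lower and their median was -7.36. Other intergenic loci fell in 5 of 47 cases (median -1.97). A fit with only these 4 libraries called none, and without heterozygous replicate 2 the fit called 35 lower and 1 higher with a median of -5.06.

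The highest small RNA counts were at 14-qA3-19970, with 9393 and 33368 CPM in P14 heterozygotes against 46 and 90.9 CPM in knockouts (log2 -9.93 ± 1.15, edgeR adjusted p = 7.03e-05). Both heterozygotes were far above both knockouts despite the gap between them. The largest fall was at 15-qD1-17920, with 2860 and 19965 CPM against 18.8 and 11.2 CPM (log2 -11.21 ± 1.27, edgeR adjusted p = 7.03e-05). The small RNA of 10-qC1-1527 fell by 9.45 ± 1.48 on the log2 scale (edgeR adjusted p = 0.0011), from 15.2 and 724 CPM to 2 and 1.6 CPM. Its heterozygotes were far apart, at 76 and 7159 counts, so the size of this fall rests mostly on replicate 2. Its precursor at that age had overlapping groups, with 12 and 4 counts in heterozygotes and 8 and 9 in knockouts. So few counts do not show that the precursor was kept.

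At P14 small RNA differed more between genotypes than precursor RNA did. The small RNA fall was the larger in 42 of the 43 loci, and in 41 with small RNA scaled by total counts. The exception with TMM was 17-qC-59. Across loci the Pearson correlation between both differences was 0.51 and the Spearman correlation 0.59, as a description over 43 loci measured in separate libraries. For P28 precursor RNA and P18 small RNA, at ages that do not match, they were 0.75 and 0.78. In that pair the small RNA fall was the larger in 41 of 43 loci with TMM and in 26 with total counts. A log2 difference in small RNA was scaled to small RNA libraries and one in precursor RNA to poly(A) libraries, so their sizes rest on separate scalings.

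**Figure D4:**
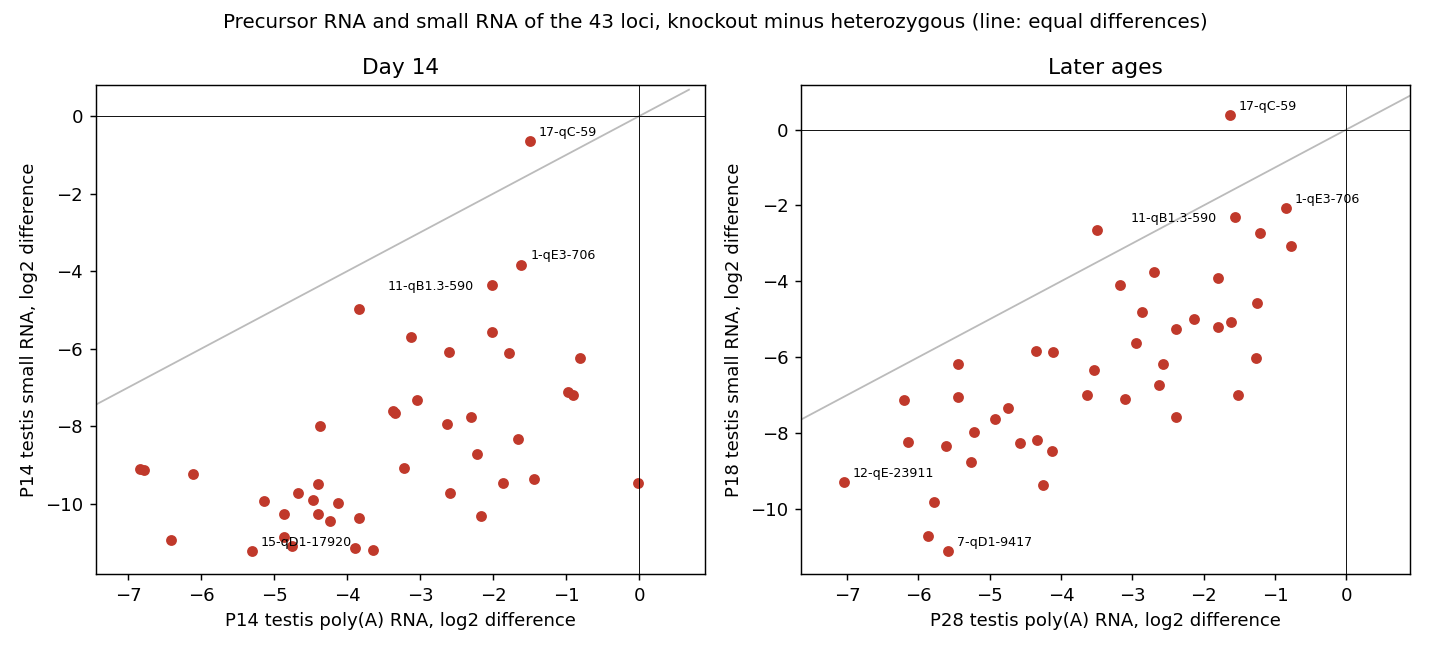
Log2 difference between knockouts and heterozygotes in precursor RNA (horizontal) and small RNA (vertical) for the 43 loci, each point 1 locus, at P14 (left) and with P28 precursor RNA against P18 small RNA (right), with the line of equal differences. Points lie below the line in 42 of 43 loci at P14 and in 41 of 43 on the right (26 if small RNA is scaled by total counts), and 17-qC-59 lies above it in both.

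At P18 the small RNA of the loci was again lower in knockouts. By edgeR with Benjamini-Hochberg adjustment 42 loci fell, against 17.7% of all tested features that fell. Their median log2 difference was -6.34 against -0.14 over all features, and the median locus kept 1.23% of its heterozygous level. The knockout share was 3.36%, 1.1% and 0.744%, above that of the P14 knockouts. Scaled by total counts, the median of all features moved from -0.14 to 2.03, and 37 loci were called lower and 1 higher with a median of -4.07. Other intergenic loci fell in 17 of 47 cases (median -1.34).

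The change of the genotype difference from P14 to P18 was not called by edgeR at any locus, against 0.0769% of all tested features called in either direction. An unadjusted p under 0.05 was reached by 19 loci, DESeq2 called 2, and scaling by total counts gave 27 with a smaller fall at P18. The answer rested on the P14 heterozygotes that stood apart: without replicate 1, 41 loci had a called smaller fall at P18, and without replicate 2, 13 had a called larger one and the median change turned from 2.31 to -1.71. Each of these fits leaves 1 P14 heterozygous library, which is assumed to vary like the other groups.

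The makeup of what remained differed from that of heterozygotes. At P18 the 15-qD3-14639 locus gave 6.97% to 7.1% of the counts in the 43 loci in heterozygotes and 15.5% to 16.2% in knockouts. For 10-qC1-12816 the shares were 3.93% to 4.34% and 12.6% to 13.2%, while 14-qA3-19970 went from 9.75% to 11.2% in heterozygotes to 5.55% to 6.31% in knockouts. None of these ranges overlapped. In CPM, 15-qD3-14639 had 18988, 18449 and 16256 in heterozygotes and 5192, 1777 and 1153 in knockouts (log2 -5.06 ± 0.79, edgeR adjusted p = 8.9e-05). The 12-qE-23911 locus had 18088, 19992 and 16318 CPM against 221, 124 and 67.8 CPM (log2 -9.29 ± 0.98, edgeR adjusted p = 1.88e-06).

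The smallest small RNA differences at P14 and P18 were at 17-qC-59, 1-qE3-706 and 11-qB1.3-590. At P18 17-qC-59 had 43.9, 77.7 and 28.8 CPM of small RNA in heterozygotes and 471, 257 and 208 CPM in knockouts, so that every knockout lay above every heterozygote. The log2 difference was 0.38 ± 0.56 with TMM and was not called, and it was 2.64 (edgeR adjusted p = 1.39e-07) scaled by total counts and 1.55 (edgeR adjusted p = 0.0634) scaled by miRNA counts. Its precursor fell at P28, with 134 and 131 CPM against 53 and 51.8 CPM (log2 -1.63 ± 0.21, edgeR adjusted p = 4.93e-06). For 1-qE3-706 the P18 small RNA groups overlapped, at 319, 550 and 280 CPM against 1002, 202 and 249 CPM. Its called fall of 2.06 ± 0.78 on the log2 scale (edgeR adjusted p = 0.0438) became 0.34 when scaled by total counts, and that of 11-qB1.3-590 went from -2.29 to 0.07.

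**Figure D5:**
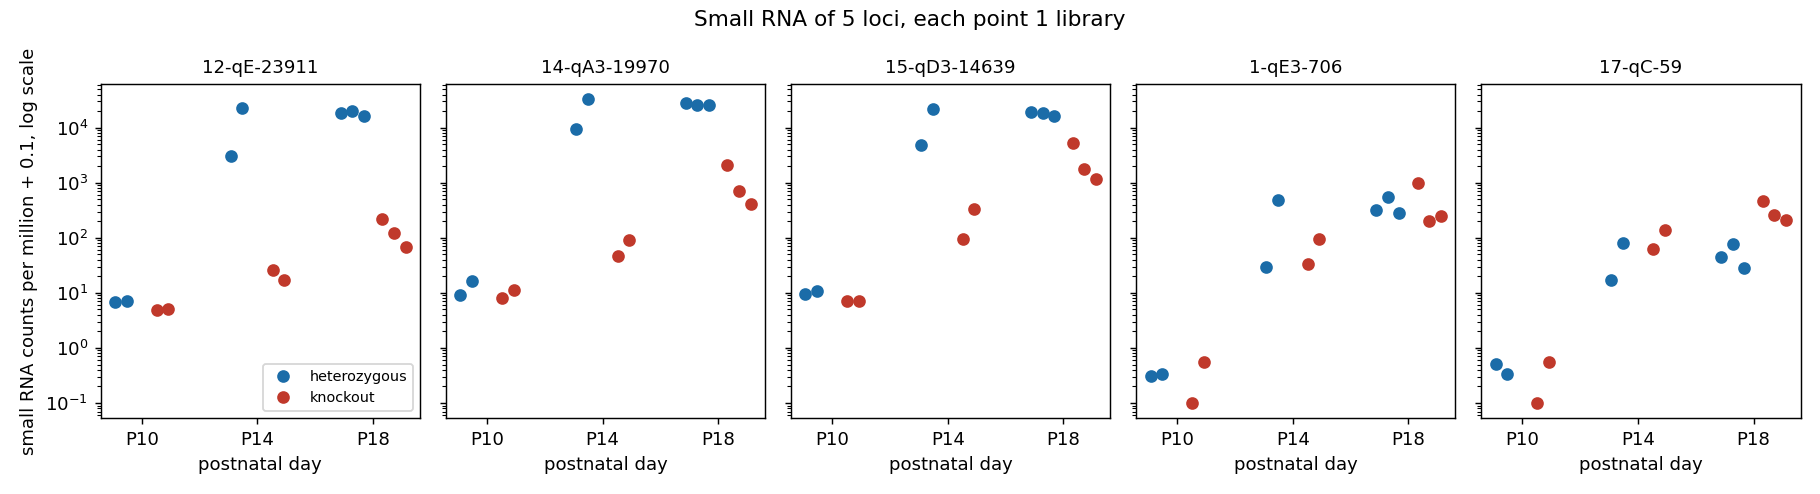
Small RNA of 5 of the 43 loci in CPM (0.1 added, log scale) at P10, P14 and P18, with heterozygous libraries in blue and knockout libraries in red and each point 1 library. In 12-qE-23911, 14-qA3-19970 and 15-qD3-14639 the groups are apart at P14 and P18, in 1-qE3-706 they overlap, and in 17-qC-59 the P18 knockouts (208 to 471) lie above the heterozygotes (28.8 to 77.7).

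In the piRNA-enriched libraries the P14 difference was as wide with TMM, with fewer calls. By edgeR with Benjamini-Hochberg adjustment 23 loci fell and none rose, against 0.319% of all tested features that fell. All 43 had an unadjusted p under 0.05. The knockouts lay below the heterozygotes in 42, and the share of all features that did so was not counted. The median log2 difference was -9.31, against 0 over all features, and the summed share was 19.2% and 39.7% in heterozygotes against 0.248% and 0.282% in knockouts. The TMM factors were 1.38 and 0.307 in heterozygotes and 2.44 and 2.26 in knockouts. Scaled by total counts the median of the loci was -6.61, and without heterozygous replicate 2 it was -6.25 with TMM. For 14-qA3-19970 the values were 25442 and 38143 CPM against 142 and 143 CPM (log2 -10.19 ± 2.36, edgeR adjusted p = 0.0874). The count moved with single libraries: 0 loci were called without either knockout replicate, 8 without heterozygous replicate 2 and 43 without heterozygous replicate 1.

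At P10 and P18 the enriched libraries gave few calls. At P10 no locus was called by edgeR, against 0% of all tested features, while 19 had an unadjusted p under 0.05 and DESeq2 called 3. The median log2 difference of -3.44 became -0.11 without heterozygous replicate 2. At P18, 1 locus fell by edgeR with Benjamini-Hochberg adjustment, against 1.05% of all tested features that fell, with a median of -1.91. This was 10-qC1-875, named after its values were seen, at 218 and 230 CPM in heterozygotes and 64.9 and 19.3 CPM in knockouts (log2 -3.52 ± 1.08, edgeR adjusted p = 0.0492). Without knockout replicate 1, 22 loci were called and the median was -5.49, while without any 1 of the other 3 libraries none was called. At 7-qD1-9417 that library had 89235 counts, against 338 in knockout replicate 2 and 144947 and 131605 in the heterozygotes.

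A further property tied the small RNA levels to the locus names. The number that ends each name followed the heterozygous P18 small RNA level in CPM, with a Spearman correlation of 0.97 across the 43 loci, and the heterozygous P28 precursor level less closely, at 0.38. What the number stands for is not given in the sources used here. Bands showed no single pattern: the 4 loci of 7-qD1 had P28 precursor differences of -6.19 to -4.58 on the log2 scale, while the 5 of 10-qC1 ran from -5.26 to -1.25 and the 4 of 14-qA3 from -4.35 to -1.8. Across loci the heterozygous P28 precursor level and the size of its fall had a Spearman correlation of -0.05. For the heterozygous P18 small RNA level and its difference it was -0.48, loci of higher level having the deeper fall. In both pairs the heterozygous level is also part of the difference. These are descriptions over 43 loci from shared libraries.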

How the data were processed

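Poly(A) RNA and small RNA libraries were deposited as 5 tables of gene and piRNA locus read counts (58 libraries, 24276 features), which are whole-number counts made by the authors. Per the submitters' processing notes, reads were handled with cutadapt 1.8.1, TopHat2 2.1 and featureCounts (Subread 1.4.6-p3) on mm10, with TopHat and featureCounts named for small RNA. How reads that map to several places were counted is not given in the sources used here, so loci with repeated sequence may share reads.

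Each table was fitted once over its own libraries with edgeR 4.0.16 in R 4.3.3: filterByExpr, TMM scaling, a group-means design, quasi-likelihood tests and Benjamini-Hochberg adjustment over all tested features, called at an adjusted p below 0.05. Filtering left 43 of the 43 loci in testis RNA and in both small RNA tables, 37 in spermatocytes and 23 in the fraction labelled round spermatids. CPM use total counts. Library scaling factors in P18 small RNA were 0.294 to 0.327 in heterozygotes and 1.14 to 1.99 in knockouts. DESeq2 1.42.0, total-count and miRNA scaling, no filter, fits to only the groups compared, a replicate block and leaving out each library were alternatives. Scaling by miRNA counts in the enriched libraries, enriched P10 without heterozygous replicate 2, enriched P18 without knockout replicate 1, and the alternatives for the P18 description were added after the data were seen.

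The loci, lists and tests were chosen with earlier results of these data known. Loci were named by fixed ranks: largest and smallest differences, highest heterozygous levels and loci nearest the threshold. Others (10-qC1-1527, 14-qA3-3095, 15-qE1-1119, 4-qC5-17839, 5-qF-14508 and 7-qD1-654) were named after their values were seen. One P18 heterozygous small RNA library carries no replicate number. No replicate pair held identical values.

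The fit was tested on simulated counts in 3 designs: 1 common spread, a spread per gene, and 1 common spread with larger changes. In the first 2, changes of 3 on the log2 scale were recovered nearly in full in every table but that of the fraction labelled round spermatids, where few or none were. The third design, with changes of 5, was added after this was seen, and was recovered nearly in full in all tables. Simulated libraries of a group shared 1 mean and did not stand apart as some real small RNA libraries did. In real enriched small RNA at P14, 23 of the 43 loci were called at a median log2 difference of -9.31. A locus not called there or in the fraction labelled round spermatids is therefore not shown to be alike between genotypes. ChIP and ATAC libraries were not used here.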

Additional observations from a re-analysis of the deposited data

Results flagged for a closer look

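The genotype difference in testis RNA changed between ages at 12 of the 43 loci by edgeR's interaction test with Benjamini-Hochberg adjustment, and the change is given as the later minus the earlier log2 difference. P14 and P28 have 2 libraries per genotype each, and 27.4% of all tested features also changed between P14 and P28. The fall deepened from P14 to P28 at 7 loci. The change was -3.3 at 10-qC1-875 (adjusted p = 0.0262, edgeR), -3.05 at 4-qC5-17839 (adjusted p = 0.00619), -2.68 at 10-qB4-6488 (adjusted p = 1.09e-05) and -2.37 at 10-qC1-1527 (adjusted p = 0.00578). It was -2.03 at 15-qE1-1119 (adjusted p = 0.000144), -1.93 at 7-qD1-9417 (adjusted p = 0.0325) and -1.87 at 6-qD1-2831 (adjusted p = 8.64e-06). At 6-qD1-2831 the difference had already changed by -1.72 from P10 to P14 (adjusted p = 0.0156).

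The fall became shallower at 5 loci. The change was 1.08 at 5-qF-14508 (edgeR adjusted p = 0.036), 1.51 at 14-qA3-19970 (adjusted p = 0.029) and 1.73 at 15-qD3-14639 (adjusted p = 0.00782). At 10-qC1-12816 it was 2.12 (adjusted p = 0.00237) and at 5-qF-14224 it was 2.23 (adjusted p = 0.00325).

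In 4 loci every knockout library moved one way in spermatocytes and the other way in the fraction labelled round spermatids. This difference was not tested because the cell types were fitted separately, and such moves were not counted over all features. The 10-qB4-6488 locus had a log2 difference of 6.21 in the round spermatid fraction and -0.78 in spermatocytes. For 7-qD2-24830 these were 5.23 and -3.36. At 15-qE1-1119 they were 0.88, which was not called, and -0.76. At 14-qA3-3095 they were -9.56, a fitted value with 0 counts in all 3 knockouts that is no bound, and 0.58. The marker shifts of the knockout fraction stand beside these values, and their part in them was not tested.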

How the results depend on the processing

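Over the loci named by rule, 192 called results were recomputed in 2116 alternatives: 1892 kept direction and side of the threshold, 220 lost the call and 4 changed sign. These were 11-qB1.3-590 (0.98) and 4-qD2.2-2182 (0.15) in P14 small RNA without heterozygous replicate 2 (against -5.23 and -6.45 without replicate 1), and 1-qE3-706 (0.34) and 11-qB1.3-590 (0.07) in P18 small RNA with total counts. Results that were not called changed sign too: in P14 small RNA without heterozygous replicate 2, 1-qE3-706 went from -3.83 to 0.63 and 17-qC-59 from -0.65 to 2.09 (edgeR adjusted p = 0.00776), and 17-qC-59 was 1.03 with total counts. For each the cause was not tested.

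Counts of called loci moved as follows, and the cause was not tested beyond fewer libraries in a fit. Fits to only the groups compared called 0 for the change from P10 to P14 in testis RNA, 1 at P10 in small RNA, 0 at P14 in small RNA, and 1 at P10 and 0 at P14 in enriched small RNA. DESeq2 called 12 for the change from P10 to P14 in testis RNA, 2 for the change from P14 to P18 in small RNA, and 3, 41 and 0 at P10, P14 and P18 in enriched small RNA. With no filter the counts were 4 for P10 to P14 in testis RNA, 15 for P14 to P18 in small RNA, 9 for that step in heterozygotes, and 7, 43 and 12 in enriched small RNA at P10, P14 and P18. Total counts gave 27 for the P14 to P18 change in small RNA and 35 for enriched P14, and miRNA scaling gave 27 and 42. In enriched small RNA the median of all features at P18 moved from 0.08 to 2.06 with total counts.

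Leaving out 1 library gave 0 to 0 calls at P10 in testis, small and enriched RNA, 23 to 36 at P14 and 43 to 43 at P28 in testis RNA, 10 to 24 in spermatocytes and 0 to 19 in the fraction labelled round spermatids. A group left with 1 library is assumed to vary like the others. It gave 34 to 43 at P14 and 39 to 42 at P18 in small RNA, and 0 to 43 at P14 and 0 to 22 at P18 in enriched small RNA. For changes between ages it gave 0 to 2 from P10 to P14 and 8 to 12 from P14 to P28 in testis RNA, and 0 to 41 in small RNA. In heterozygotes it gave 41 to 42 from P10 to P14, 42 to 43 from P14 to P28, and 0 to 43 in small RNA. The P18 testis median ran from -3.82 to -3.56.

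Deviations of same-numbered libraries had correlations of -0.22 to 0.29. With 2 libraries per genotype both numbers give the same value, and paired libraries can deviate together weakly. These values therefore cannot decide whether the numbers pair libraries. A fit with the replicate number as a block, which left out the unnumbered P18 heterozygous small RNA library, called 37 at P14 and 43 at P28 in testis RNA, 25 in spermatocytes, 6 lower in the fraction labelled round spermatids, 2 for the P10 to P14 change, 14 for P14 to P28, 37 and 40 at P14 and P18 in small RNA, and 10 and 0 at P14 and P18 in enriched small RNA. Depth limits the purified cells most, and loci with a few counts at P10 could not show a difference.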
